A study of Mus musculus with 16 samples.

Results

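Globin and red cell genes were followed in gastrocnemius, a calf muscle, by poly(A) RNA-seq of 16 mice. The 7 genes, of 21923 in the deposited table, were the adult alpha globin genes Hba-a1 and Hba-a2, the adult beta globin genes Hbb-bs and Hbb-bt, Alas2, Slc4a1, and Bpgm. They were chosen by symbol for their levels over the NOR, CAC, AM, and KD groups in these same mice, so their levels and fold changes are given as a description, with no test. Each group held 4 mice. The tumor-free NOR mice were injected with PBS where the others were given tumor cells, and then daily with PBS. CAC mice bore unmodified tumors and had daily PBS injections. AM mice, titled T in the labels, bore the same tumors and were treated daily from day 9 with intraperitoneal amiloride (2 mg/kg). In KD mice the tumor cells had a Rab27 knock-down, and PBS was injected daily from day 9. Mice were 6 to 8 weeks old at purchase by the study's methods, and harvest was on day 30, counted from the injection of tumor cells or PBS. In each group replicates 1 and 2 were labelled C57BL/6, the host of LLC (Lewis lung carcinoma) cells in the tumor groups, and replicates 3 and 4 were labelled BALB/c, the host of CT26 (colon carcinoma) cells. Strain and tumor line therefore cannot be told apart in the tumor groups. The labels give male C57BL/6 mice and BALB/c mice of both sexes, without the sex of each mouse. The study's methods name males for both strains.

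Hemoglobin, the oxygen carrier of red cells, is built of alpha and beta chains around heme. Alas2 makes the enzyme that starts heme synthesis in erythroid cells, Slc4a1 makes the band 3 anion exchanger of the red cell membrane, and Bpgm makes the enzyme that forms 2,3-bisphosphoglycerate, which lowers the oxygen affinity of hemoglobin. Circulating mammalian red cells have no nucleus, and globin transcripts in a muscle sample are usually read as RNA of blood, chiefly of reticulocytes, the young red cells that still hold RNA. Bpgm also belongs to a family of enzymes that act on phosphoglycerates in many cells.

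The globin genes lie in tandem pairs, and the near-identity of each pair bears on every value given for a single chain. In the GENCODE M21 annotation of GRCm38, Hba-a1 (ENSMUSG00000069919, chr11:32283511-32284465, plus strand) and Hba-a2 (ENSMUSG00000069917, chr11:32296489-32297298, plus strand) were 12023 bases apart. Hbb-bs (ENSMUSG00000052305, chr7:103826534-103828096, minus strand) and Hbb-bt (ENSMUSG00000073940, chr7:103812524-103813996, minus strand) were 12537 bases apart. The coding sequences of each pair differed at 1 base, C381T between Hba-a1 and Hba-a2, of 426 coding bases, and C417T between Hbb-bs and Hbb-bt, of 441, with the first-named gene's base given first and positions counted from 1 at the start codon. These stretches of coding exon, from coding base 351 to 410 for the alpha genes and 382 to 441 for the beta genes, are shown because they hold the differing base, in capitals:
Hba-a1: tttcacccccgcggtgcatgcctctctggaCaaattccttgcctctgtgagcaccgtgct
Hba-a2: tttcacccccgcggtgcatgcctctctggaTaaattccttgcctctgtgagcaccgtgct
Hbb-bs: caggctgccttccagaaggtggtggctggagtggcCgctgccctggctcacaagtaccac
Hbb-bt: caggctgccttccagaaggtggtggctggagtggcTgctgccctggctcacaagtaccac
Of all 31-base words in the annotated coding transcripts, 28.7% of those of Hba-a1 and 8.97% of those of Hba-a2 were not in the other alpha gene. For Hbb-bs and Hbb-bt these shares were 33.1% and 40.6%. A read that spans no such word fits both genes of a pair, so the split within a pair depends on how the authors' counting placed shared reads. The sum of a pair does not depend on that split if each shared read was counted once. Whether it was is not known here, so the alpha and globin shares below carry the same limit.

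Upstream windows are shown for Hba-a1, Hbb-bs, Hbb-bt, and Alas2, whose levels moved together, and for Bpgm, which did not follow them. They come from the RefSeq promoter table on GRCm38.p6, which held 6 of the 7 genes, and were trimmed to the bases before the most upstream GENCODE exon. Capitals mark a word searched on both strands, which was AGATAA or the word AGATAG or the word TGATAA or the word TGATAG, and which GATA1, an erythroid transcription factor, is known to bind:
Hba-a1, chr11:32283422-32283510, plus strand: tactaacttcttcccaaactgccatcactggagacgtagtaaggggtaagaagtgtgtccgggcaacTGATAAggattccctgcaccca
Hbb-bs, chr7:103828097-103828178, minus strand: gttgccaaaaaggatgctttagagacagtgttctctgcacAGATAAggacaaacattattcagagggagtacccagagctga
Hbb-bt, chr7:103813997-103814173, minus strand: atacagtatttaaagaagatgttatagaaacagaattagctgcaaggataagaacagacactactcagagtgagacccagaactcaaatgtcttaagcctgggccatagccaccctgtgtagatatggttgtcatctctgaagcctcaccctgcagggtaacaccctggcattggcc
Alas2, chrX:150547167-150547374, plus strand: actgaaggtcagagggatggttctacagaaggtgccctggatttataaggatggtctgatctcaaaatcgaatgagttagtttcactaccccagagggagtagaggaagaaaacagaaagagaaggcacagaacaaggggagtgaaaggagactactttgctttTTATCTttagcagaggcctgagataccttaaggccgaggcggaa
Bpgm, chr6:34476106-34476206, plus strand: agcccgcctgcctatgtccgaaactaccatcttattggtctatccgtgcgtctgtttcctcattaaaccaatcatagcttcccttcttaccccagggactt
The windows of Hba-a1, Hbb-bs, and Alas2 each held 1 such word, and so did the longer window of Hba-a2, which is not printed. Those of Hbb-bt and Bpgm held none of these letters. Such words are common, since windows of the same length and position held one in 11.8% of 32851 promoters for the Hba-a1 window, in 3620 of them for Hbb-bs, and in 26.4% for Hba-a2, 21.2% for Hbb-bt, 23.7% for Alas2, and 13.4% for Bpgm. These matches are a description of the letters only. Alas2 (ENSMUSG00000025270) spans chrX:150547375-150570638 on the plus strand, Slc4a1 (ENSMUSG00000006574) chr11:102348824-102366203 on the minus strand, and Bpgm (ENSMUSG00000038871) chr6:34476207-34505613 on the plus strand.

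Library totals ran from 35913190 to 61032708 counts, and levels are given as CPM, a gene's counts as a part of the library total after TMM scaling. The 4 adult globin genes together took between 0.0874% and 1.78% of all counts. Libraries differed in other ways that touch the values below. The 8 B cell markers summed to 0.600 to 3.58 CPM in NOR replicate 1, CAC replicates 1 and 4, and KD replicates 2 and 3, and to 41.4 to 536 CPM in the other 11 libraries. AM replicate 1 alone held liver transcripts at a high level, with albumin (Alb) at 1220.4 CPM and hemopexin (Hpx), a heme-binding plasma protein, at 216 CPM. Alb and Hpx were named after their values were seen. The muscle identity of all libraries was clear from the 10 fast muscle genes, which summed to 84820 to 237500 CPM, and of which skeletal actin Acta1 and the myosin Myh4 had the highest means over the 16 mice.

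The 4 globin genes and Alas2 were low and even in the NOR mice and higher in all 4 CAC mice. Hba-a1 stood at 363, 465, 383, and 384 CPM in NOR replicates 1 to 4. It stood at 2725, 1585, 1315, and 1283 CPM in CAC replicates 1 to 4. The lowest CAC mouse was thus above the highest NOR mouse. In bulk muscle RNA, more cells of a type and more RNA per cell cannot be told apart. On the log2 scale the difference of CAC from NOR was 2.11 with a standard error (SE) of 0.262, a fold of 4.32. The coefficient of variation among the 4 mice was 11.4% in NOR and 39.3% in CAC.

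The second alpha gene gave the same picture. Hba-a2 ranged from 270.4 to 333 CPM in NOR and from 863 to 1933 CPM in CAC, with a log2 difference of 2.06 (SE 0.263). For the beta chain, Hbb-bs stood at 298, 402, 330.1, and 327 CPM in the NOR mice and at 2775, 1458, 1338, and 1119 CPM in the CAC mice. Neither gene overlapped between the groups. The log2 difference of Hbb-bs was 2.30 (SE 0.293), and that of Hbb-bt, which ranged from 106 to 146 CPM in NOR and from 316 to 1062 CPM in CAC, was 2.30 (SE 0.347).

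Alas2, the erythroid enzyme of heme synthesis, was also higher in all 4 CAC mice. It stood at 11.8, 13.3, 13.0, and 11.9 CPM in NOR and at 118.6, 70.4, 64.8, and 48.1 CPM in CAC. The groups did not overlap, and the log2 difference was 2.59 (SE 0.259), a 6.03-fold higher level. For comparison, 4.32% of the 14666 genes tested were called higher in CAC than in NOR and 5.13% lower, where a called gene had a false discovery rate (FDR) of 0.05 or less in edgeR's quasi-likelihood test and a fold of 1.5 or more upward, or 0.667 or less downward. The median log2 difference over all genes tested was 0.01. Nothing is read from these shares for the 7 genes, which were selected on this contrast. How many of all genes did not overlap between CAC and NOR was not counted. Non-overlap, here and below, is therefore a description of the values only.

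**Figure D1:**
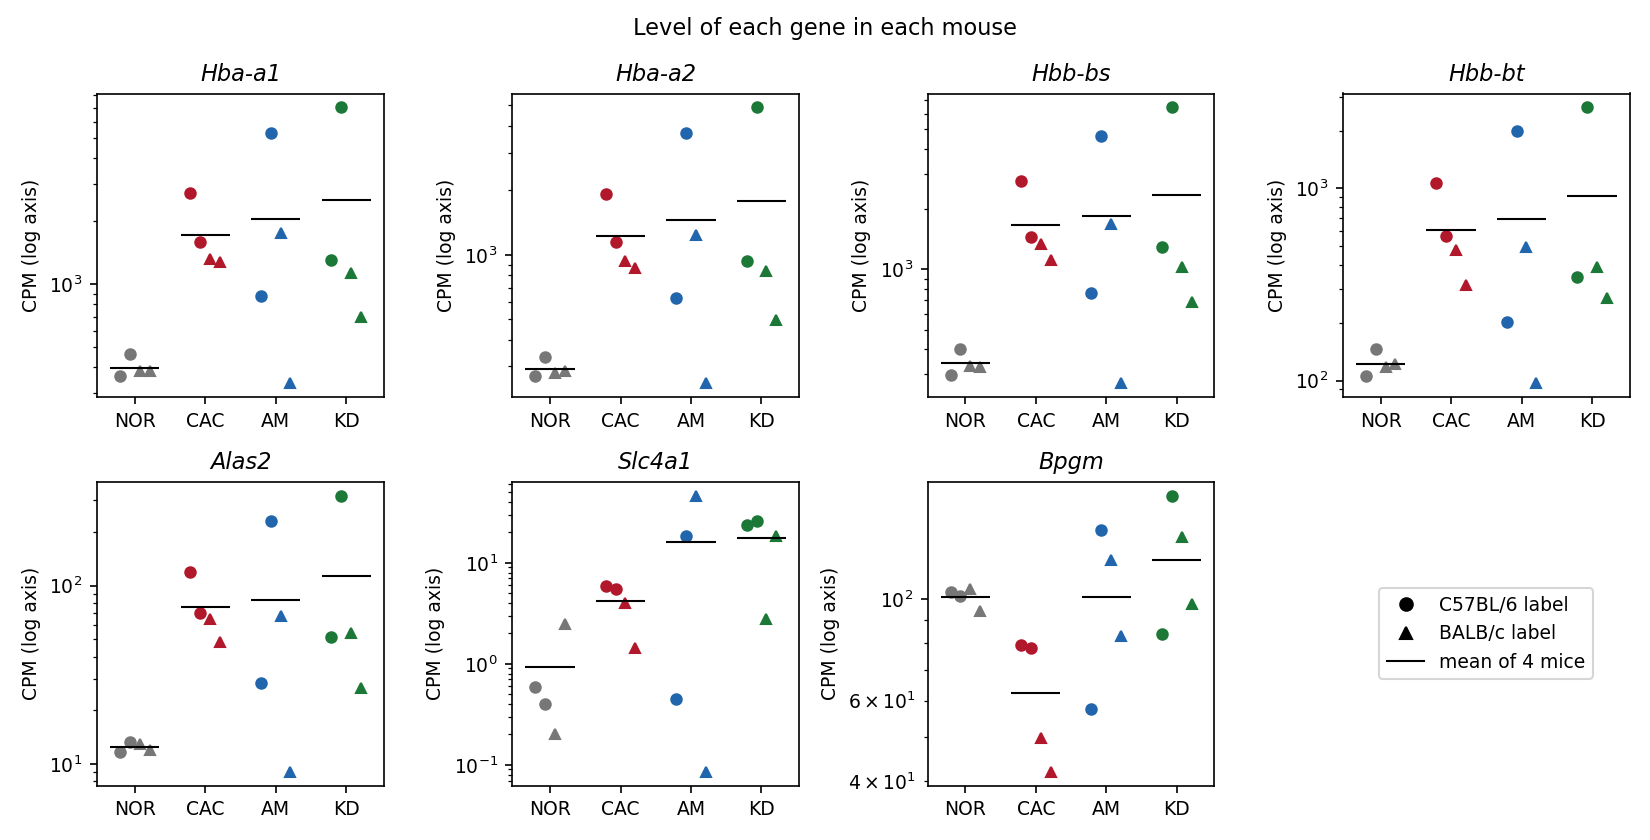
Level of each of the 7 genes in each mouse, in CPM on a log axis, by group, with marker shape giving the strain label and the horizontal line the mean of 4 mice. The CAC mice lie above all NOR mice for the globin genes and Alas2 and below them for Bpgm, and the AM and KD mice are widely spread.

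The AM and KD groups were spread far more widely than CAC, and single mice set their means. Hba-a1 stood at 878, 5270.0, 1759, and 335 CPM in AM replicates 1 to 4. AM replicate 2 was above every CAC mouse, while AM replicate 4 was below every NOR mouse. In KD replicates 1 to 4 the gene stood at 1303, 7020.3, 1135, and 697 CPM. KD replicate 2 held the highest level of all 16 mice, and all 4 KD mice were above the NOR range.

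Alas2 was also highest in AM replicate 2 and KD replicate 2. It stood at 28.4, 229, 67.3, and 9.06 CPM in the AM mice and at 51.8, 318, 53.9, and 26.6 CPM in the KD mice. AM replicate 4, at 9.06 CPM, was again below the NOR range of 11.8 to 13.3 CPM. Hbb-bs stood at 763, 4650.3, 1679, and 269.7 CPM in AM and at 1287, 6444, 1033, and 686 CPM in KD, so AM replicate 4 was lowest for it too. Hba-a2 ranged from 250.03 to 3730 CPM in AM and from 497 to 4901 CPM in KD, and Hbb-bt from 96.7 to 1988 CPM in AM and from 270.2 to 2647 CPM in KD.

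Against CAC, the fitted differences of these 5 genes were small beside their errors. For AM the log2 differences were 0.26 (SE 0.720) for Hba-a1, 0.26 (SE 0.714) for Hba-a2, 0.14 (SE 0.742) for Hbb-bs, 0.20 (SE 0.844) for Hbb-bt, and 0.14 (SE 0.815) for Alas2. Without AM replicate 2 they turned to between -1.21 for Hbb-bt and -0.80 for Hba-a2. For KD they were 0.56 (SE 0.710), 0.55 (SE 0.701), 0.50 (SE 0.706), 0.59 (SE 0.775), and 0.58 (SE 0.731) in the same order. Without KD replicate 2 they were between -0.85 for Hbb-bt and -0.70 for Hba-a2. With the replicate number as a block and all mice kept, the sign turned as well, to between -0.72 for Alas2 and -0.36 for Hba-a2 in AM and between -0.11 for Alas2 and -0.03 for Hbb-bt in KD. No direction against CAC is read from these 5 genes. The ratio of group medians, which 1 mouse moves less, was 0.910 for Hba-a1 and 0.708 for Alas2 in AM, and 0.841 and 0.782 in KD.

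Against NOR, both AM and KD stayed higher on average. The log2 differences of AM from NOR were 2.38 (SE 0.719) for Hba-a1, 2.45 (SE 0.736) for Hbb-bs, and 2.75 (SE 0.833) for Alas2, with 3 of 4 AM mice above all NOR mice. Those of KD from NOR were 2.67 (SE 0.710), 2.80 (SE 0.699), and 3.17 (SE 0.7499), with 4 of 4 KD mice above all NOR mice. Without KD replicate 2 the KD values fell to 1.40 for Hba-a1, 1.57 for Hbb-bs, and 1.82 for Alas2. Without AM replicate 2 the AM values fell to 1.302 for Hba-a1, 1.40 for Hbb-bs, and 1.47 for Alas2, and that of Hbb-bt, 2.52 (SE 0.828), fell to 1.10. These comparisons share the NOR mice, and those against CAC share the CAC mice. By group mean the order was NOR, CAC, AM, KD for all 5 genes, and neighbours other than NOR and CAC overlapped.

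Per length, on the FPKM scale the authors deposited, the order of the genes was the same in every group. In CAC the mean ± SD (n = 4) was 3342 ± 1254 FPKM for Hbb-bs, 2555 ± 809 for Hba-a1, 2278 ± 743 for Hba-a2, and 887 ± 409 for Hbb-bt. Bpgm followed at 64.3 ± 15.6 FPKM, then Alas2 at 39.9 ± 13.4 and Slc4a1 at 0.963 ± 0.424. In NOR the same genes stood at 640.0 ± 126, 556 ± 99.7, 513 ± 84.0, 170.4 ± 35.1, 97.5 ± 8.00, 6.19 ± 0.818, and 0.200 ± 0.242 FPKM. The 2 alpha genes were neighbours whose group ranges overlapped, but Hba-a1 was above Hba-a2 in each of the 16 mice, at 51.5% to 54.1% of their summed FPKM.

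The globin genes and Alas2 ordered the mice almost alike. Over the 16 mice, Pearson's r of log2 CPM between any 2 of these 5 genes was 0.989 to 1.00 over 10 pairs, and Spearman's rho 0.982 to 1.00. With each gene centred on its group mean, r was 0.985 to 1.00, so this held within groups too. These genes share each library and its scaling, and the values describe this set, which was chosen for a shared pattern. Relative to globin counts, Alas2 stood at 9.88 to 11.7 counts per 1000 in NOR. It stood at 13.4 to 15.9 in CAC, 9.52 to 14.6 in AM, and 12.4 to 15.9 in KD. All CAC mice were thus above all NOR mice in this proportion. Globin counts themselves spanned more than this, from 0.0874% of the library in NOR replicate 1 to 1.78% in KD replicate 2.

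**Figure D2:**
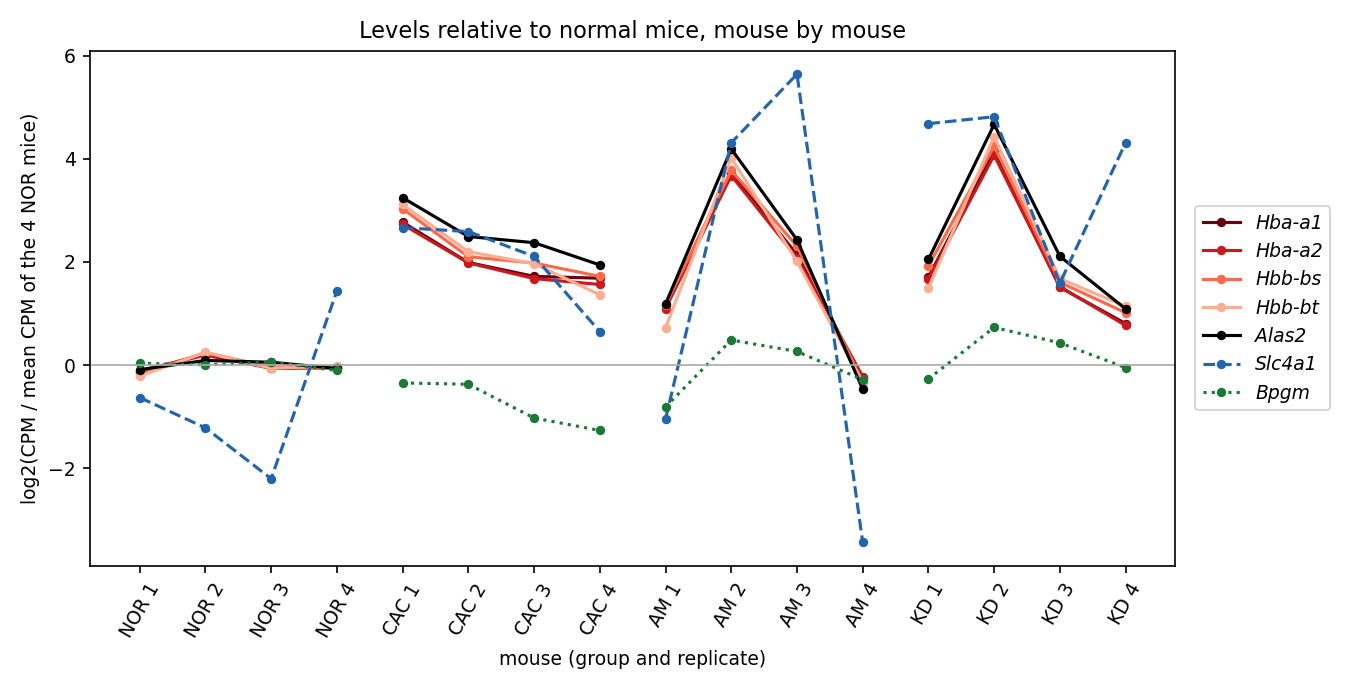
Level of each gene in each mouse as log2 of its CPM over the mean CPM of the 4 NOR mice. Lines join the mice of a group only to guide the eye, since replicates have no order. The 4 globin genes and Alas2 run together, with peaks in AM replicate 2 and KD replicate 2, Slc4a1 is highest in AM replicate 3, and Bpgm lies below 0 in all CAC mice.

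Slc4a1, the band 3 anion exchanger, followed these genes less closely. It stood at 0.596, 0.397, 0.200, and 2.50 CPM in NOR replicates 1 to 4, on 22, 24, 10, and 148 counts. It stood at 5.85, 5.56, 3.98, and 1.45 CPM in CAC, so that CAC replicate 4 lay within the NOR range. The log2 difference of CAC from NOR was 2.17 (SE 0.787) and moved to 3.41 without NOR replicate 4 and to 2.80 with the replicate number as a block. In AM the gene stood at 0.447, 18.3, 46.1, and 0.085 CPM, the last on 4 counts. In KD it stood at 23.7, 26.0, 2.78, and 18.3 CPM.

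The highest Slc4a1 level, in AM replicate 3, was thus not in the mouse with the most globin. Per 1000 globin counts, Slc4a1 stood at 8.92 in AM replicate 3, 8.52 in KD replicate 4, and 6.12 in KD replicate 1. In the other 13 mice it stood at 0.0896 to 2.23. KD differed from CAC by 2.09 (SE 0.680) and AM from CAC by 1.93 (SE 1.40) on the log2 scale, and from NOR by 4.25 (SE 0.958) and 4.11 (SE 1.64). With the replicate number as a block the difference of AM from CAC turned to -0.38 and that from NOR fell to 2.61. Without AM replicate 3 these were 0.58 and 2.76. Without NOR replicate 4 the differences from NOR rose to 5.52 for KD and 5.38 for AM. Over the 16 mice r between Slc4a1 and Alas2 was 0.753, and 0.659 after centring on groups.

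Among the other red cell genes, Slc4a1 ran closely with some that were at low counts here. Its r was 0.978 with Trim10, an erythroid ubiquitin ligase, and 0.9045 with Epb42 (protein 4.2). The pattern rests on few reads, since Trim10 reached at most 3.97 CPM. Klf1, the erythroid Krüppel-like factor, was over 1 CPM in only 3 mice, AM replicate 3 at 2.78 CPM, KD replicate 1 at 1.45 CPM, and KD replicate 4 at 1.23 CPM, and stood at 0 to 0.4455 CPM in the other 13. Over the 16 mice r between Slc4a1 and Klf1 was only 0.401 (rho 0.34), and KD replicate 2, with 26.0 CPM of Slc4a1, held 0.150 CPM of Klf1. Klf1 and Epb42 were singled out after their values were seen. The 10 neutrophil markers summed to 277, 407, and 345 CPM in these 3 mice, and to 9.50 to 309 CPM in the other 13, with CAC replicate 4 highest of those. Of the 10, the granule protein genes Ngp, Ltf, and Camp, singled out after their values were seen, were highest in the same 3 mice, while S100a8, Csf3r, Cd177, Retnlg, and Mmp8 were highest in CAC replicate 4. The part of other blood cells in these 3 libraries was not tested. Without them the difference of KD from CAC was 1.77 for Slc4a1 and 1.24 for Hba-a1, and that of AM from CAC was 0.58 and 0.33. Only KD replicates 2 and 3 then stayed in the KD group. Its Hba-a1 value rests largely on KD replicate 2, which held the highest level of all 16 mice. Klf1 and Alas2 did not run together (r = -0.03).

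**Figure D3:**
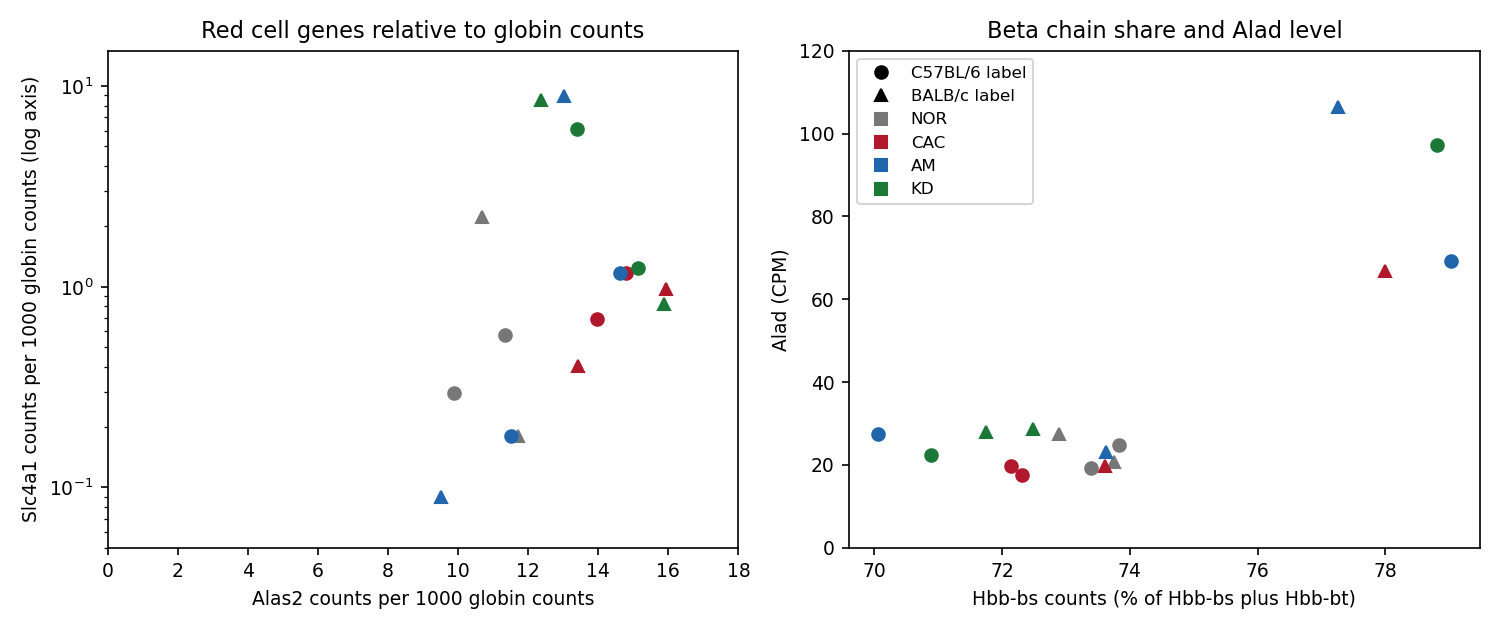
Left: Slc4a1 against Alas2, both as counts per 1000 counts of the 4 globin genes, with the y axis on a log scale. Right: Alad level in CPM against the share of Hbb-bs in Hbb-bs plus Hbb-bt counts. Each point is 1 mouse, colored by group, with shape giving the strain label. AM replicate 3, KD replicate 1, and KD replicate 4 stand at 6.12 to 8.92 on the left, and 4 mice stand apart on the right, 2 with each label.

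Bpgm went against the rule that chose it, since it was lower in CAC than in NOR. It stood at 103.5, 101.4, 105.3, and 93.9 CPM in NOR and at 79.5, 78.05, 49.6, and 41.9 CPM in CAC. All CAC mice were below all NOR mice, and the log2 difference was -0.70 (SE 0.206). In AM it stood at 57.6, 141.4, 121.3, and 83.1 CPM, and in KD at 83.8, 168, 136, and 97.6 CPM. All 4 KD mice were above all CAC mice, with a log2 difference of 0.96 (SE 0.285), and 3 of 4 AM mice were, with 0.69 (SE 0.312). Against NOR the values were 0.01 (SE 0.242) for AM and 0.27 (SE 0.202) for KD, and the ranges overlapped.

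Bpgm nonetheless kept some of the order of the globin genes within groups. Its r with Alas2 was 0.232 over the 16 mice and 0.706 after centring on groups. Without the 2 mice farthest from the median Alas2 level, the uncentred r was -0.0028. With the globin genes r was 0.232 to 0.303 over the 16 mice and 0.683 to 0.764 centred. Without the 2 mice farthest from the median of the globin gene, the uncentred r was -0.272 to -0.190. The centred r without such mice was not computed. With the muscle genes Myh4, Pvalb, and Ckm the r of Bpgm was 0.821, 0.787, and 0.596, which became 0.704, 0.659, and 0.548 after centring. Without the 2 mice farthest from the median Bpgm level, the uncentred r was 0.584, 0.475, and 0.352. The share of Bpgm counts that came from muscle fibers was not tested. Per 1000 globin counts, Bpgm stood at 75.3 to 99.7 in NOR and 9.36 to 16.4 in CAC.

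The other red cell genes were tested, since the choice of the 7 genes did not use them. Their lists were written with earlier results of these data known, and the genes were measured in the same mice. These calls are thus not independent of that choice. Of 58 measured genes in a list of genes largely restricted to red cells and a list of red cell genes that other cells also use, 46 passed the filter on low counts in CAC vs. NOR. The numbers called were 7 higher (15.2% of those tested, against 4.32% of all genes) and 3 lower (6.52%, against 5.13%), and with the replicate number as a block 4 higher and 4 lower. The median log2 difference over the 46 genes was 0.05, close to the 0.01 of all genes. In the restricted list 2 of 18 tested genes were called, both higher, while 9 of the 18 were above 0 and 9 below, with a median of -0.10. In the shared list 5 of 28 were called higher and 3 lower. For the 2 lists together, scaling by total counts gave 10 higher and 2 lower, and DESeq2 gave 10 higher and 3 lower. Without the filter on low counts it was 5 higher and 3 lower of 57 tested. Ubb and Bsg had the highest levels of the shared list, and Bsg (basigin, a membrane glycoprotein) differed by -0.41 without a call. The total of 10 depended on single mice, and was 3 without NOR replicate 2, 5 without NOR replicate 3, 4 without CAC replicate 1, and 6 without CAC replicate 3.

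Of the restricted genes called, Mfsd2b, which exports sphingosine-1-phosphate from red cells and platelets, rose by 1.08 (SE 0.287, FDR = 0.0407) on the log2 scale. This FDR and those of the shared list come from the main edgeR fit with all mice and no block. Which of these genes kept a call in the other fits was not recorded.

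In the shared list, Nfe2, a transcription factor of erythroid and platelet precursors, rose by 2.32 (SE 0.386, FDR = 0.00867) in CAC. Ube2l6, a conjugating enzyme for the ubiquitin-like ISG15 that is also induced by interferon, rose by 0.90 (FDR = 0.0156), and Epb41, protein 4.1 of the membrane skeleton, by 0.84 (FDR = 0.0198). Tal1, a factor of blood and endothelial cells, rose by 0.63 (FDR = 0.0345), and Ubb, a polyubiquitin gene used by all cells, by 0.62 (FDR = 0.0394). Those called lower were Tfrc, the transferrin receptor, with -1.93 (FDR = 0.0117), Ank1, an ankyrin of red cells with a muscle isoform, with -1.34 (FDR = 0.0214), and Alas1, the heme synthesis enzyme of other tissues, with -0.71 (FDR = 0.0283). Tfrc fell from 123 to 197 CPM in NOR to 22.6 to 76.7 CPM in CAC, without overlap, while Alas2 stood higher. Trim10 had a larger difference, 2.69, but at an SE of 0.927 it was not called (FDR = 0.0909).

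**Figure D4:**
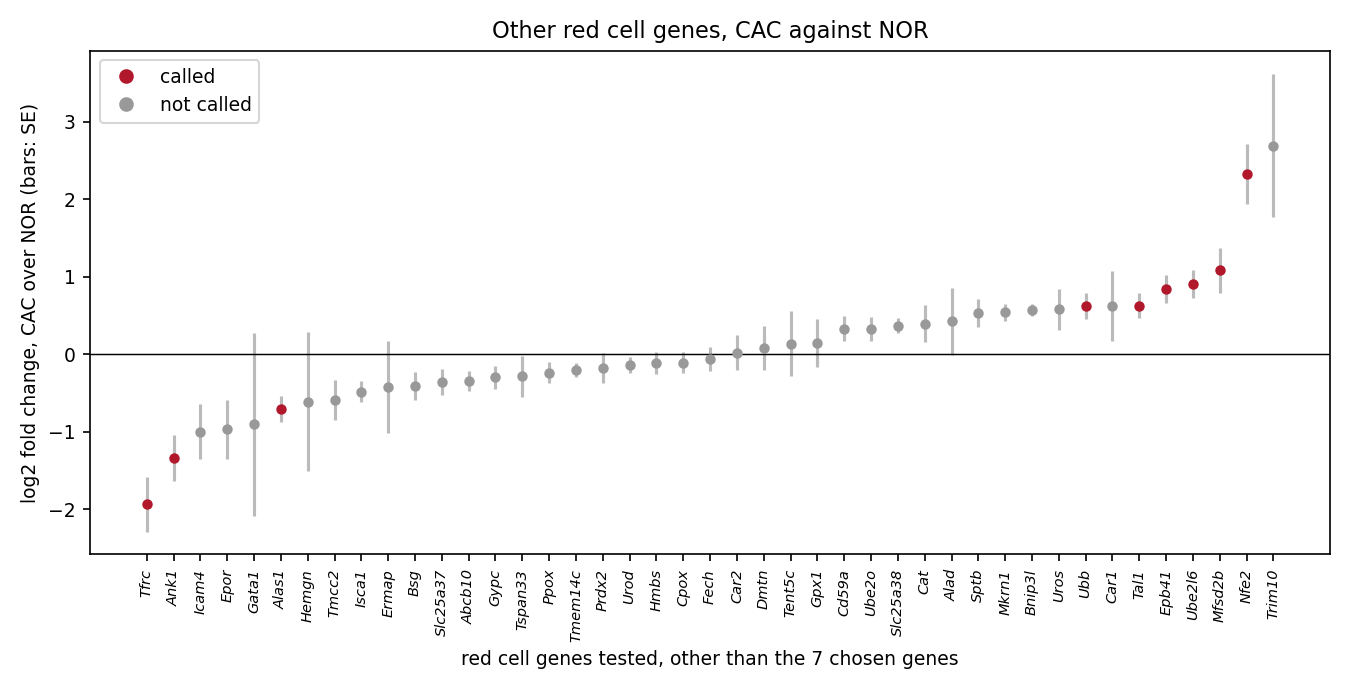
Log2 fold change of CAC over NOR, with its standard error, for 43 of the 46 red cell genes tested other than the 7 chosen genes. Called genes are in red, with Tfrc, Ank1, and Alas1 on the lower side and Nfe2 highest of the 6 shown on the upper side.

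Some markers of other cells were also higher in CAC than in NOR. The 10 neutrophil markers summed to 9.50 to 43.8 CPM in NOR and 128 to 309 CPM in CAC. Of these 10, 6 were called higher, among them S100a8 with 3.97, S100a9 with 3.52, and Csf3r with 2.70, besides Mmp8, Cd177, and Retnlg. Over all genes tested, 4.32% were called higher. Camp and Mmp8 were at 0 in 1 library each. Of 10 endothelial genes, Pecam1 and Esam were called higher, with 0.77 and 0.78, and the list, in which Cdh5 was highest, summed to 1099 to 1786 CPM in NOR and 1373 to 1928 CPM in CAC. No gene was called among the 7 tested platelet markers, the highest being Pf4 and Itga2b, the 8 B cell markers, led by Cd79a and Cd22, the 8 T cell markers, led by Lck and Cd247, or the 10 fast muscle genes. In edgeR 2 platelet, 0 B cell, 0 T cell, and 3 muscle genes had an unadjusted p below 0.05. The part of these cells in the red cell results was not tested.

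Other oxygen-binding and heme-handling genes were compared between CAC and NOR too. Myoglobin (Mb), the oxygen store of muscle, stood at 1973 to 3595 CPM in NOR and 769 to 2681 CPM in CAC, with a log2 difference of -0.59 (SE 0.360, FDR = 0.324). Cygb (cytoglobin) differed by -0.02 (FDR = 0.960). None of the 11 genes of hemoglobin and heme clearance was called by edgeR, 1 had an unadjusted p below 0.05, and the ferritin chains Fth1 and Ftl1 differed by 0.38 each (FDR = 0.113 and 0.290). Fth1 nonetheless stood at 2237 to 2921 CPM in NOR and 3261 to 3515 CPM in CAC, without overlap. The 11 genes summed to 2973 to 3710.0 CPM in NOR, 4210.0 to 4706 in CAC, 3077 to 3702 in AM, and 2709 to 5057 in KD, but most of each CAC sum was Fth1, and the median log2 difference over the 11 genes was 0.14, with 8 above 0 and 3 below. The embryonic genes Hbb-y and Hba-x had counts in 1 library each, Hbb-bh1 and Hbb-bh2 in none, and Hbq1b and Hbq1a reached at most 1.02 and 0.225 CPM.

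In AM vs. CAC, 2 of 46 red cell genes were called, 1 higher (2.17%, against 1.63% of 14674 genes) and 1 lower (2.17%, against 2.03%), near the shares of all genes. Epor, the erythropoietin receptor, rose by 1.62 (SE 0.281, FDR = 0.0190), from 0.739 to 0.911 CPM in CAC to 1.68 to 3.315 CPM in AM. Ubb fell by 0.74 on the log2 scale (FDR = 0.0224). The count was 0 without CAC replicate 1, AM replicate 1, or AM replicate 3, and 1 without CAC replicate 2, AM replicate 2, or AM replicate 4. It was also 0 with the replicate number as a block. Tmcc2 and Abcb10, the restricted genes with the highest levels, differed by 0.25 and 0.28 and were not called. In the restricted list 17 of 18 tested genes were above 0, with a median of 0.42, against 0.01 over all genes. A gene at low counts can pass the filter through the group where it is high, so these tallies carry no support for a direction.

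In KD vs. CAC, 0 of 48 red cell genes were called, where 0% of 14593 genes were called higher and 0.00685% lower. By edgeR 8 of the 48 had an unadjusted p below 0.05, and DESeq2 called 2. Over all genes 1627 had such a p, and DESeq2 called 332. In the restricted list 19 of 20 tested genes were above 0, with a median of 0.87, to which the same limit applies. Neither AM nor KD gave a call against NOR, in 46 genes for AM and 50 for KD, and 0% of 14738 and 0% of 14748 genes were called. There 12 and 11 red cell genes had an unadjusted p below 0.05, and DESeq2 called 0 and 4. Over all genes these were 1354 and 522 by edgeR, and DESeq2 called 70 and 31. These counts do not show that the groups were alike, since the spread among AM and KD mice was wide.

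The strain labels were compared over all 16 mice with the group as a covariate. These comparisons rest on the labels as given, since the share of Hbb-bs in beta counts did not follow them, and whether each label is right was not tested. The 7 genes were chosen on levels in these mice, so their values are given with no test. The log2 difference of BALB/c-labelled from C57BL/6-labelled mice for the globin genes and Alas2 lay between -1.30 (SE 0.543) for Hbb-bt and -1.13 (SE 0.488) for Hbb-bs, with -1.18 (SE 0.542) for Alas2. Slc4a1 and Bpgm differed by 0.07 (SE 0.970) and -0.22 (SE 0.200). The mice with the most globin, AM replicate 2 and KD replicate 2, both carried the C57BL/6 label and enter this comparison. Of all 15220 genes, edgeR called 0%, with 248 at an unadjusted p below 0.05, and DESeq2 called 0.

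The CAC-to-NOR difference was also compared between labels through an interaction term, with 2 mice in each cell. For the 7 genes, again with no test, the term, BALB/c minus C57BL/6 label, lay between -2.53 (SE 1.47) for Slc4a1 and -0.62 (SE 0.390) for Hba-a1, with -0.74 (SE 0.378) for Alas2 and -0.74 (SE 0.173) for Bpgm. No gene of the 14666 was called by edgeR (0%), with 717 at an unadjusted p below 0.05, and DESeq2 called 125.

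Proportions between the chains were taken within each mouse, from the counts that also chose the genes, and are given with no test. Alpha genes made 54.8% to 61.5% of the globin counts, and the mean ± SD was 58.5% ± 2.20 in 8 BALB/c-labelled and 58.2% ± 2.11 in 8 C57BL/6-labelled mice. Hba-a1 made 58.2% ± 0.831 and 58.3% ± 0.484 of the alpha counts. Hbb-bs made 74.2% ± 2.25 and 73.8% ± 3.38 of the beta counts. Each difference between labels was smaller than the SD among mice. Within groups the difference in Hbb-bs share, BALB/c minus C57BL/6 label, was -0.297 points for the NOR mice, 3.58 for CAC, 0.895 for AM, and -2.73 for KD.

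C57BL/6 and BALB/c mice are known to carry different beta globin haplotypes. The Hbb-bs share did fall into separate ranges, but not by label. It was 77.3% to 79.0% in CAC replicate 4, AM replicate 1, AM replicate 3, and KD replicate 1, and 70.1% to 73.8% in the other 12 mice. Its counting error was small, with 95% Wilson intervals of 78.6% to 79.4% in AM replicate 1 and 69.9% to 70.2% in AM replicate 2, which cover counting error only. Of the 4 mice, 2 carried each label. The 4 NOR mice, at 72.9% to 73.8%, were all in the lower range.

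A gene of heme synthesis split the mice in the same way. Alad, which makes the enzyme of the second step, stood at 66.9, 69.2, 106.5, and 97.2 CPM in CAC replicate 4, AM replicate 1, AM replicate 3, and KD replicate 1. It stood at 17.6 to 28.8 CPM in the other 12 mice. Alad was singled out after its values were seen, and whether mice with these shares differed in genotype was not tested. Without CAC replicate 4, the 1 such mouse in that comparison, the CAC-to-NOR difference was 2.76 for Alas2 and 2.23 for Hba-a1, and the number of other red cell genes called in CAC vs. NOR was 11.

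Among 13201 other genes with a mean of at least 1 CPM, the 10 most like the mean of the 7 genes by r over the 16 mice included Ube2l6 (r = 0.926), Isg20, an interferon-induced exonuclease (r = 0.917), Plekhg3 (r = 0.874), Trim10 (r = 0.859), Pef1, Cd46, and Fbln5. With each gene centred on its group, the 10 highest included Ube2l6 (r = 0.890), Isg20, Cd46, and Plekhg3 again, besides Ccnyl1, Osr2, Ppp1r35, Clec2d, and Mkrn1. These values describe 16 libraries that share their scaling, and carry no test.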

How the data were processed

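Poly(A) RNA of gastrocnemius from 16 mice was sequenced by the authors. The submitters' processing notes name fastp, Bowtie2, HISAT2, and StringTie 1.3.1, with the builds mm9 and GRCm38 and no stated role for each. How reads were counted on genes, and whether strand was used, is not given in the sources used here. The authors deposited whole-number counts per gene, not normalized, and FPKM values, scaled for gene length and library size. All 16 columns of each unit were matched to mice by name. The 7 genes, the red cell and marker lists, and the alternatives were chosen with earlier results of these data known.

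The test was edgeR 4.0.16's quasi-likelihood test (R 4.3.3) after TMM scaling, on the 8 libraries compared and on genes that passed filterByExpr (count minimum 10, total minimum 15), with Benjamini-Hochberg adjustment over all genes tested. A called gene had FDR 0.05 or less and a fold of 1.5 or more, or 0.667 or less. The SE of a log2 difference was its absolute value divided by the square root of the test's F statistic. It therefore reflects that test, and for the 7 genes it is given only as a description. DESeq2 1.42.0 was an alternative, and NOISeq, used by the authors, was not used here. The steps were tested on simulated data. CPM values carry the TMM factors of all 16 libraries, and log2 CPM for correlations used a prior count of 2. FPKM values were only compared between genes and used for shares as an alternative. Shares were computed in Python 3.11.15. A planned exact permutation test of shares by strain label (scipy 1.17.1) is not reported, since the shares come from the counts that chose the genes and the test did not keep mice within their groups. Depth was 35913190 to 61032708 counts per library, and nothing states that the mice of a group were independent beyond their labels, so p-values measure the spread between these samples. Shares carry 95% Wilson intervals for counting error only. Named genes are the 7, every list gene called in any of the 5 comparisons, the 2 genes of each list with the highest mean CPM, and the 10 genes most like the 7 genes, raw and centred. Positions come from GENCODE M21 (GRCm38), matched by Ensembl identifier. Some genes that the rule names are not reported here and are left out of the plot of red cell genes, though the counts over lists include them.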

Additional observations from a re-analysis of the deposited data

Results flagged for a closer look

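KD replicate 2 stood far above the other KD mice for the 4 globin genes and Alas2. It held 7020.3 CPM of Hba-a1, 4901 CPM of Hba-a2, 6444 CPM of Hbb-bs, 2647 CPM of Hbb-bt, and 318 CPM of Alas2. Its gap to the next mouse divided by the range of the KD group was 0.904, 0.902, 0.896, 0.949, and 0.906, which is what singled this mouse out. These 5 values move together, so they are 1 event rather than 5. The genes were chosen on levels that included this mouse, so its distance is a description and no test. Chance flags about 1 in 20 groups of values that were not so chosen, and 40 groups of 4 values were examined here.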

How the results depend on the processing

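Of the other red cell genes, 10 were called in CAC vs. NOR, 8 to 13 under the alternatives that kept all mice or left out libraries by their Hbb-bs share, and 3 to 11 when 1 mouse was left out. In AM vs. CAC the 2 calls became 4 with DESeq2, 0 with the replicate block, 0 without the libraries of high Hbb-bs share, 0 without the 3 libraries over 1 CPM of Klf1, and 0 to 2 with 1 mouse left out. DESeq2 called 2 in KD vs. CAC, 4 in KD vs. NOR, and 1 in the interaction of label and condition, where edgeR called 0. The cause of these changes was not tested. Leaving out libraries by Hbb-bs share or by Klf1 was chosen after seeing the data.

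The replicate block gave 8 calls in CAC vs. NOR, 4 higher and 4 lower against 7 and 3, and left the counts of KD vs. CAC, AM vs. NOR, and KD vs. NOR at 0. Same-numbered mice share the strain label and, in the tumor groups, the tumor line. Their deviations from the group means correlated at 0.685, 0.179, 0.412, and -0.237 in CAC vs. NOR and between -0.703 and 0.501 in the other comparisons, so in no comparison were all 4 over 0.1. The difference in Hbb-bs share between labels ranged from -0.185 to 1.11 percentage points with 1 mouse left out, that in Hba-a1 share from -0.316 to 0.0448, and that in alpha share from -0.219 to 0.718. Their sign turned without CAC replicate 4 (-0.185), AM replicate 2 (-0.175), AM replicate 3 (-0.0788), or KD replicate 2 (-0.0559) for Hbb-bs, without NOR replicate 4 (0.0136), AM replicate 4 (0.0448), KD replicate 2 (0.00221), or KD replicate 3 (0.00508) for Hba-a1, and without CAC replicate 1 (-0.219) or AM replicate 4 (-0.168) for the alpha share. Scaling by total counts moved the median of all genes by 0.13 in CAC vs. NOR and by -0.11 in KD vs. CAC on the log2 scale, and other scalings by less than 0.1. In CAC vs. NOR no setting turned the sign of any of the 7 genes. Depth limits Slc4a1, with as few as 4 counts in a library.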
